A study of Mus musculus with 8 samples.

Results

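The genes described here are 36 genes of the hypoxia response and of glycolysis in mouse primary hepatocytes, chosen by gene symbol on an Affymetrix mouse expression array. Each gene was read from the probe set with the highest mean over all 8 arrays, a probe set being the group of short probes that the array assigns to 1 transcript. Of the 36 genes, 33 had a probe set annotated to their symbol alone, and 31 had such a probe set, outside the array's controls, with a usable value on all 8 arrays. All 31 were bright enough to be tested, out of 10741 genes tested by their brightest probe set and 18194 genes with a symbol on the array.

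Hepatocytes came from wild-type mice (WT) or from mice lacking transglutaminase 2 (KO), a protein-crosslinking enzyme encoded by Tgm2, and both genotypes shared a mixed C57BL6/129SVJ background. Culture lasted 15 h, either with no ethanol added or at 100 mM ethanol, and each of the 4 combinations has 2 arrays, lettered A and B. The deletion is not described as restricted to hepatocytes, and the labels used here do not give the age or number of mice or say whether A and B came from separate mice, so the p-values cover only array-to-array spread, which may be technical. The 2 ethanol arrays lettered B carry titles naming 100 mM ethanol but a treatment text describing a control incubation. They were grouped by title, and the counts that change when their treatment text is followed instead are given beside the ethanol results.

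Hypoxia-inducible factor (HIF) is a transcription factor made of an oxygen-regulated alpha subunit, such as the product of Hif1a, and a constant partner encoded by Arnt. In oxygen, prolyl hydroxylases encoded by the Egln genes modify the alpha subunit, the VHL protein binds it and it is degraded. When oxygen is scarce the alpha subunit persists, and HIF raises the genes for blood vessel growth, mitochondrial turnover, glucose uptake and most steps of glycolysis. In liver, hepatocytes near the central vein see the least oxygen, and liver cells use their own forms of several glycolytic enzymes, such as the pyruvate kinase encoded by Pklr.

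The 36 genes fall into 16 that encode the HIF alpha subunit or HIF targets without a glycolytic role (15 tested), 15 glycolytic enzymes (12 tested) and 5 transporters and regulators of glycolysis (4 tested). Bnip3l, Gpi1 and Eno1 were not analysed here, since no probe set carried their symbol alone. Gapdh was represented by control probe sets and is described without a test. Pfkfb4, whose product sets the level of an activator of phosphofructokinase, had a single probe set without a usable value on the ethanol WT array B. Its 7 values lay between 42.1 and 75.4, with no separation of the genotypes, and it was not tested.

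Array quality differed between groups in ways that touch these genes. The trimmed mean intensity was 98.5 and 101 on the untreated KO arrays and 103 on the ethanol KO array A, against 199 to 297 on the other 5 arrays, before the arrays were scaled to each other. The ratio of 3′ to 5′ control probe sets for pyruvate carboxylase, which rises as RNA or its labelled copy gets shorter, was 10.02 and 16.8 in WT cells (26.7 and 44.5 under ethanol) and 10.6 and 8.69 in KO cells (4.91 and 5.45 under ethanol). The same ratio spanned far less for the control genes Gapdh (0.771 to 0.977) and Actb (1.15 to 1.62). For both, the ethanol WT arrays were the highest. Tgm2 was lower in KO on all 6 of its usable probe sets, with 378 and 368 in untreated KO against 16656 and 16836 in untreated WT on the brightest.

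HIF binds the letters ACGTG or GCGTG, and 300-base promoter windows from RefSeq (build GRCm38.p6, 250 bases before to 50 bases after each transcript start) were searched for both on both strands. Overlapping matches were merged, and the letters ACGTG also occur inside the CACGTG element that other factors bind. Ndrg1 and Bnip3l had no window. Of 34 genes with a window, 31 held at least 1 match in some window and 3 (Pklr, Tpi1 and Gpi1) held none. At the level of windows, 38 of 50 (76.0%) held a match, against 43.8% of all 32851 mouse windows, and 11 (22.0%) held at least 3, against 6.55%. The median GC content was 63.2% for the members' windows and 52.7% for all windows. In windows of like GC content the shares were 10 of 17 members' windows against 45.2% of all (50 to 60% GC), 21 of 23 against 67.9% (60 to 70% GC) and 6 of 7 against 73.0% (70 to 80% GC).

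5 windows are shown because their genes differ in the results that follow: Adm, Egln3 and Slc2a1 were higher in KO, Ldha holds 5 merged matches and was not called in untreated KO, and Pklr holds no match and was higher in KO. Capitals mark the matches, and each window is given 5′ to 3′ on the strand of its gene. They lie at chr7:110627407-110627706 (plus strand) for Adm, chr12:54203825-54204124 (minus strand) for Egln3, chr4:119108495-119108794 (plus strand) for Slc2a1, chr7:46845554-46845853 (plus strand) for Ldha and chr3:89135892-89136191 (plus strand) for Pklr. Ldha and Pklr each have 2 windows, of which only the first is shown. The second holds 2 merged matches for Ldha and 0 for Pklr, and which start these hepatocytes use was not tested.
Adm: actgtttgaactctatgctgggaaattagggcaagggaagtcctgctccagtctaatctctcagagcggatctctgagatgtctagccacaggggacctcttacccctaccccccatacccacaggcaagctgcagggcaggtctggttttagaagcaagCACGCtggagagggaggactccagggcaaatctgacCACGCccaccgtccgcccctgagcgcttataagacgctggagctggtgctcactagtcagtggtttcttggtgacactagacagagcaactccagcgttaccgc
Egln3: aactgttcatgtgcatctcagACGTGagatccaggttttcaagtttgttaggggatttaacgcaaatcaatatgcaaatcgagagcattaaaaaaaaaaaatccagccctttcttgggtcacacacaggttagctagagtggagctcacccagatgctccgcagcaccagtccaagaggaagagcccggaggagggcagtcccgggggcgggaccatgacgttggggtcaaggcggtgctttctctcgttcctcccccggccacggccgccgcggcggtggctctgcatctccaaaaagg
Slc2a1: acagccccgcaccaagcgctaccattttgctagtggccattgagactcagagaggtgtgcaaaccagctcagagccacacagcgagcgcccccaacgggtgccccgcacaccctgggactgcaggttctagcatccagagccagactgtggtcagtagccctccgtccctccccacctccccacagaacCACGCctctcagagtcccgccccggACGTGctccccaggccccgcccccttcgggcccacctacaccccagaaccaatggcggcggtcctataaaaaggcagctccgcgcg
Ldha: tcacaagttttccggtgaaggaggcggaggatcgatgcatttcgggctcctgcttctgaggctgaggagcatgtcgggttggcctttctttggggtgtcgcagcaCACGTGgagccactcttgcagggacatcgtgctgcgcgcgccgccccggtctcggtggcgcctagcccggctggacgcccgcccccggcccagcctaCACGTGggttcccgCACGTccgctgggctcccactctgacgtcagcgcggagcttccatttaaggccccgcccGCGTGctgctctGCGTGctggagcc
Pklr: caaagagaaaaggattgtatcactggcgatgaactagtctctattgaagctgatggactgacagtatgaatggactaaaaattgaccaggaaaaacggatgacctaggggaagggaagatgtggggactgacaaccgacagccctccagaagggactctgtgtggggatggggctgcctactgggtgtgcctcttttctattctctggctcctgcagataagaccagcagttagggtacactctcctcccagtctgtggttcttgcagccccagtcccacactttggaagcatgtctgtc

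The first question was how these genes differed between KO and WT without ethanol. In this comparison genotype coincides with trimmed mean intensity before scaling, 98.5 and 101 in KO against 199 and 267 in WT. The part of array brightness in these differences was not tested. Hif1a and HIF targets without a glycolytic role were higher in untreated KO for 12 of 15 genes, led by Adm at 5.41-fold and Egln3 at 5.38-fold. Messages of 3 of the 4 tested transporters and regulators (Slc2a1, Slc16a3 and Pfkfb3) were higher as well, whereas the enzymes of glycolysis split, with 4 higher, 2 lower and 6 not called. Over all 31 genes, 19 were higher and 2 lower at an adjusted p under 0.05 from limma's moderated test, where 15.3% of all tested probe sets were called higher and 16.9% lower. Intensities below are normalised and given for array A and then array B, and log2 differences and folds are of the normalised intensity plus 16. Where the arrays of the genotypes do not overlap, this describes the single gene. The share of all probe sets that separate in this way is not given here. The median log2 difference was 0.63 over the 31 genes and -0.035 over all tested probe sets.

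**Figure D1:**
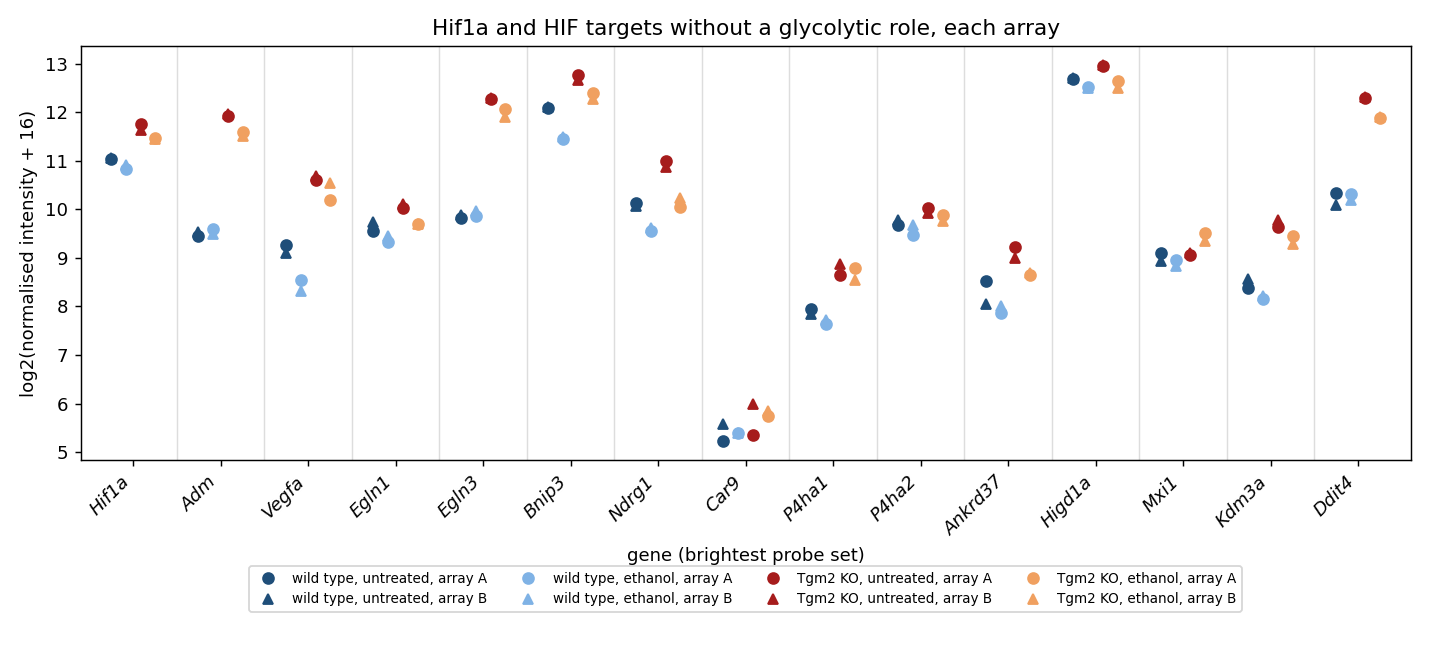
Normalised intensity of Hif1a and 14 HIF targets on each array, as log2(intensity + 16) on the vertical axis, with 1 column per gene, circles for array A, triangles for array B and 1 colour per group. The 4 KO points of Adm, Egln3 and Ddit4 lie above their 4 WT points, and those of Car9 and P4ha2 lie close to them; heights of different genes are not comparable.

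Hif1a, the oxygen-regulated subunit itself, measured 2094 and 2114 in WT cells (1800 and 1926 under ethanol) and 3425 and 3186 in KO cells (2827 and 2767 under ethanol). All 4 KO arrays lay above all 4 WT arrays, by 1.57-fold without ethanol (log2 difference 0.65, SE 0.072, adjusted p = 0.000175). A message level says nothing of HIF protein, which is controlled mainly by degradation.

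Secreted products of the pathway showed some of the widest gaps between genotypes. Adm, encoding the vasodilator peptide adrenomedullin, measured 687 and 730 in WT cells (755 and 702 under ethanol) and 3841 and 3962 in KO cells (3070 and 2886 under ethanol). The 4 KO arrays were all above the 4 WT arrays, and the untreated difference was 5.41-fold (log2 2.44, SE 0.079, adjusted p = 8.57e-08). Vegfa, the main growth factor of blood vessels, measured 599 and 530 in WT cells (359 and 305 under ethanol) and 1552 and 1634 in KO cells (1147 and 1480 under ethanol). Again every KO array exceeded every WT array, and the untreated difference was 2.78-fold (adjusted p = 5.86e-05).

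The prolyl hydroxylases are both brakes on HIF and HIF targets. Egln3 measured 894 and 927 in WT cells (919 and 979 under ethanol) and 4905 and 5029 in KO cells (4300 and 3824 under ethanol). The gap was 5.38-fold without ethanol (adjusted p = 9.33e-08), with no overlap between genotypes. Egln1, the hydroxylase that carries most HIF degradation in many cells, measured 739 and 834 in WT cells (625 and 689 under ethanol) and 1035 and 1086 in KO cells (812 and 814 under ethanol). Its untreated difference was smaller, at 1.34-fold (adjusted p = 0.00808), and its 2 ethanol KO arrays lay within the range of the untreated WT arrays; this call was lost without the untreated WT array A or the untreated KO array B.

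Stress and mitochondrial targets followed. Ddit4, an inhibitor of growth signalling through mTOR, measured 1279 and 1068 in WT cells (1266 and 1151 under ethanol) and 4977 and 5043 in KO cells (3768 and 3831 under ethanol). Its untreated difference was 4.24-fold (log2 2.08, SE 0.093, adjusted p = 7.47e-07). Bnip3, an outer-membrane protein that promotes removal of mitochondria, measured 4319 and 4381 in WT cells (2763 and 2878 under ethanol) and 7004 and 6504 in KO cells (5411 and 4953 under ethanol). It differed by 1.55-fold (adjusted p = 0.000189), with all KO arrays above all WT arrays. Higd1a, a small mitochondrial protein, was 1.20-fold higher in untreated KO (adjusted p = 0.0131), a call lost when any 1 of the 4 untreated arrays was left out.

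Kdm3a, a histone demethylase, measured 319 and 365 in WT cells (271 and 280 under ethanol) and 780 and 866 in KO cells (684 and 609 under ethanol). P4ha1, a subunit of the collagen prolyl hydroxylase, measured 232 and 214 in WT cells (184 and 195 under ethanol) and 385 and 455 in KO cells (427 and 358 under ethanol). Both were higher in untreated KO, Kdm3a by 2.35-fold (adjusted p = 7.31e-05) and P4ha1 by 1.82-fold (adjusted p = 0.00151), and neither overlapped between genotypes. Ankrd37, an ankyrin-repeat protein, was 1.77-fold higher (adjusted p = 0.00425). Ndrg1, a stress-responsive gene, measured 1110 and 1051 in WT cells (733 and 774 under ethanol) and 2026 and 1865 in KO cells (1037 and 1194 under ethanol). Untreated KO exceeded untreated WT by 1.79-fold (adjusted p = 0.00019), and the 2 ethanol KO arrays lay on either side of the untreated WT arrays.

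3 targets were not called in untreated KO. Car9, a cell-surface carbonic anhydrase often used as a hypoxia marker, was dim on every array, between 21.4 and 47.5, and its log2 difference of 0.27 had an SE of 0.32. P4ha2, the sister subunit of P4ha1, differed by 0.25 (adjusted p = 0.101). Mxi1, a MYC antagonist, differed by 0.068 (adjusted p = 0.686). No gene of the class was called lower, with limma, and none was lower at an unadjusted p under 0.05.

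**Figure D2:**
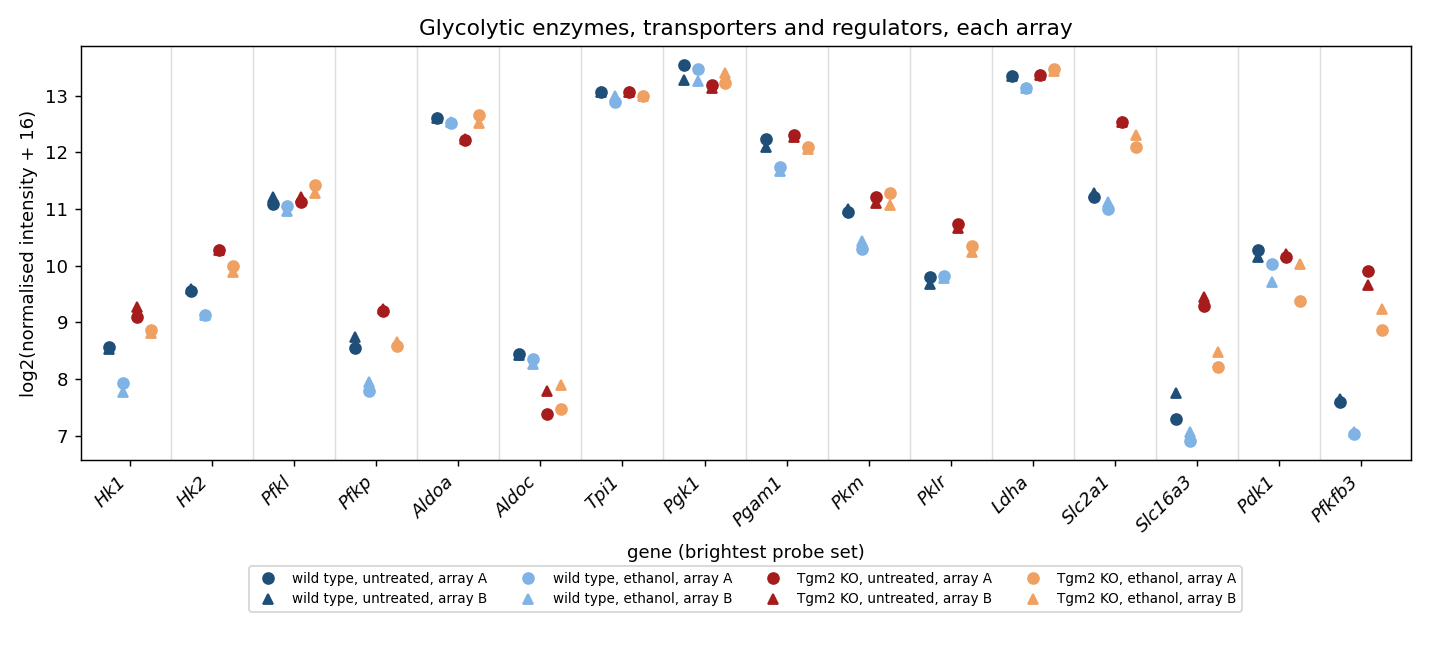
Normalised intensity of 12 glycolytic enzymes and 4 transporters and regulators on each array, as log2(intensity + 16) on the vertical axis, with 1 column per gene, circles for array A, triangles for array B and 1 colour per group. Slc2a1, Slc16a3 and Pfkfb3 separate by genotype, whereas Tpi1, Pgk1 and Ldha stay within narrow bands near the top of the scale; heights of different genes are not comparable.

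Among transporters and regulators, 3 of 4 tested genes were higher in untreated KO. Slc2a1, the glucose transporter GLUT1, measured 2341 and 2478 in WT cells (2038 and 2205 under ethanol) and 5911 and 5890 in KO cells (4359 and 5043 under ethanol). Pfkfb3, whose product makes the activator of phosphofructokinase, measured 177 and 183 in WT cells (115 and 118 under ethanol) and 942 and 796 in KO cells (452 and 586 under ethanol). Slc16a3, a lactate exporter, measured 142 and 199 in WT cells (104 and 118 under ethanol) and 606 and 679 in KO cells (282 and 340 under ethanol). None of these 3 overlapped between genotypes, and the untreated differences were 2.44-fold for Slc2a1, 4.49-fold for Pfkfb3 and 3.57-fold for Slc16a3 (adjusted p = 8.53e-06, 1.15e-05 and 8.06e-05). Pdk1, a kinase that keeps pyruvate out of mitochondria, was not called on its brightest probe set (log2 -0.038, adjusted p = 0.899); a dimmer set was called higher, by 0.32.

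The first step of glycolysis, phosphorylation of glucose, is carried by hexokinases. Hk2, the insulin-regulated form, measured 732 and 753 in WT cells (544 and 540 under ethanol) and 1217 and 1231 in KO cells (1008 and 929 under ethanol). Hk1, the widespread form, measured 362 and 353 in WT cells (226 and 202 under ethanol) and 532 and 598 in KO cells (452 and 434 under ethanol). Both were higher in untreated KO, by 1.64-fold and 1.55-fold (adjusted p = 0.000264 and 0.00275), and all KO arrays exceeded all WT arrays.

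Phosphofructokinase, the committed step, has a liver form (Pfkl) and a platelet form (Pfkp). Pfkp measured 359 and 412 in WT cells (206 and 230 under ethanol) and 574 and 587 in KO cells (367 and 388 under ethanol). Its untreated difference was 1.49-fold (adjusted p = 0.00517), a call lost without the untreated WT array A, and its ethanol KO arrays overlapped untreated WT. Pfkl measured 2158 and 2350 in WT cells (2106 and 1984 under ethanol) and 2202 and 2361 in KO cells (2739 and 2478 under ethanol), and it was not called without ethanol (log2 0.018, adjusted p = 0.895).

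The aldolases, which split the fructose bisphosphate, were the 2 enzymes lower in untreated KO. Aldoa, the main muscle and ubiquitous form, measured 6203 and 6249 in WT cells (5874 and 5897 under ethanol) and 4723 and 4822 in KO cells (6435 and 5812 under ethanol). Its untreated KO arrays were the lowest of the 8, at a log2 difference of -0.38 (SE 0.067, adjusted p = 0.00212). With arrays scaled by their trimmed means instead of quantiles, that difference was -0.18 and was not called (adjusted p = 0.208). Aldoc, the brain form, measured 331 and 326 in WT cells (313 and 293 under ethanol) and 151 and 206 in KO cells (161 and 223 under ethanol). All 4 KO arrays were below all 4 WT arrays, and the untreated log2 difference was -0.84 (SE 0.19, adjusted p = 0.00726), a call lost without the untreated KO array A.

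The enzymes of lower glycolysis were mostly not called without ethanol. Tpi1, Pgk1, Pgam1 and Pkm, which carry the triose phosphates to pyruvate, had log2 differences of -0.00078, -0.25, 0.12 and 0.19 (adjusted p between 0.0949 and 0.994). Ldha, which turns pyruvate into lactate, measured 10369 and 10393 in WT cells (8943 and 8952 under ethanol) and 10476 and 10476 in KO cells (11298 and 11048 under ethanol), with an untreated log2 difference of 0.013 (adjusted p = 0.882). These are among the brightest probe sets, where quantile normalisation gives equal ranks equal values, and with trimmed-mean scaling the untreated differences were 0.59 for Ldha, 0.46 for Tpi1 and 0.33 for Pgam1 (adjusted p = 0.00927, 0.00758 and 0.0127). Under that scaling 7 enzymes were higher and 1 lower in untreated KO, in place of 4 and 2, and the share of all probe sets called under it is not given here. Gapdh, a control gene on the array, measured 15728 and 15912 in WT cells (12363 and 12932 under ethanol) and 15399 and 15938 in KO cells (16435 and 14705 under ethanol) on the brightest of its 3 control probe sets, at the 5′ end. Both ethanol WT arrays were below the other 6. The log2 difference between KO and WT was -0.014 in untreated cells and 0.30 under ethanol on that set, 0.013 and 0.30 on the middle set and 0.066 and 0.12 on the 3′ set, with no test.

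Pyruvate kinase has a liver form, encoded by Pklr, and a form of most other tissues, encoded by Pkm. Pklr measured 871 and 805 in WT cells (881 and 860 under ethanol) and 1689 and 1608 in KO cells (1290 and 1188 under ethanol). Untreated KO exceeded untreated WT by 1.95-fold (log2 0.96, SE 0.085, adjusted p = 4.96e-05), and no KO array fell into the WT range. Across all members, the range of log2 differences ran from -0.84 for Aldoc to 2.44 for Adm.

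**Figure D3:**
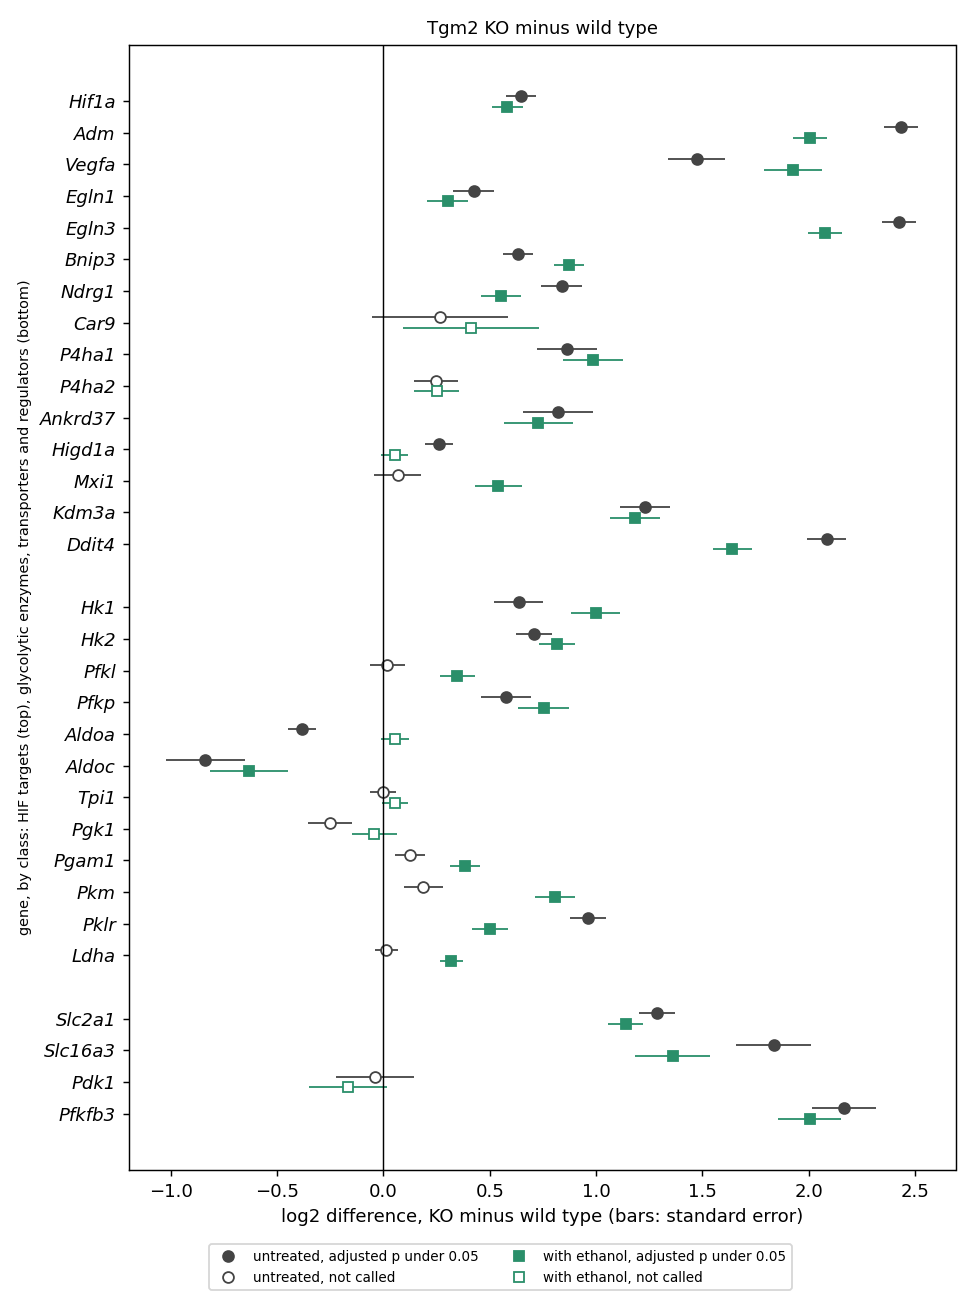
Log2 difference between KO and WT (horizontal axis, bars 1 SE) for each of the 31 tested genes, in untreated cells (circles) and with ethanol (squares), filled where the adjusted p was under 0.05. HIF targets lie to the right of 0, from 0.068 to 2.44 without ethanol, and the enzymes lie on both sides.

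With ethanol in both genotypes, most HIF targets and transporters were again higher in KO, and so were 8 of 12 glycolytic enzymes. KO exceeded WT for 23 of 31 genes and fell short for 1, where 14.0% of all tested probe sets were called higher and 15.1% lower. By class the counts were 12 higher and 0 lower of 15 HIF genes, 8 higher and 1 lower of 12 enzymes, and 3 higher and 0 lower of 4 transporters and regulators. At an unadjusted p under 0.05 from the same limma test, 0 HIF genes and 0 transporters and regulators were lower too. The 2 genotype comparisons use different arrays, so they share no control.

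Vegfa had a 3.80-fold difference with ethanol (log2 1.93, SE 0.13, adjusted p = 1.14e-05), beside 2.78-fold without it. Egln3, Adm and Pfkfb3 were 4.22-fold, 4.02-fold and 4.01-fold higher in ethanol KO (adjusted p = 3.58e-07, 3.85e-07 and 1.71e-05). Mxi1 measured 534 and 473 in WT cells (483 and 440 under ethanol) and 520 and 535 in KO cells (719 and 638 under ethanol). With ethanol the log2 difference was 0.54 (adjusted p = 0.0059), a call lost without the ethanol WT array B. Higd1a did not pass (log2 0.052, adjusted p = 0.599). Egln1 passed narrowly (log2 0.30, adjusted p = 0.0412) and lost the call when any 1 of the 8 arrays was left out.

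4 enzymes called higher with ethanol had not been called without it. Pkm measured 1949 and 2032 in WT cells (1243 and 1365 under ethanol) and 2347 and 2189 in KO cells (2469 and 2125 under ethanol). Both ethanol WT arrays stood below the other 6, and ethanol KO exceeded them by 1.75-fold (log2 0.81, SE 0.092, adjusted p = 0.000227). Pgam1, phosphoglycerate mutase, measured 4802 and 4347 in WT cells (3383 and 3223 under ethanol) and 5020 and 4937 in KO cells (4365 and 4262 under ethanol), again with the ethanol WT arrays lowest and a difference of 0.38 (adjusted p = 0.00316). Ldha and Pfkl differed by 0.32 and 0.35 (adjusted p = 0.00217 and 0.0123). The Ldha difference was 0.40 with trimmed-mean scaling and was not called (adjusted p = 0.0553), and that of Pfkl was lost without the ethanol WT array B. Hk1, Hk2, Pfkp and Pklr were higher by 0.998, 0.82, 0.75 and 0.50 on the log2 scale, whereas Aldoc was lower, with a log2 difference of -0.63 (adjusted p = 0.0293), a call lost without either the ethanol WT array A, the ethanol WT array B or the ethanol KO array A.

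The 3′ to 5′ ratio of pyruvate carboxylase quoted above differed most between these 2 groups, ethanol WT and ethanol KO, and its part in the enzyme differences was not tested. Within the pairs of arrays whose spike-in controls behaved alike (the ratio of 2 control transcripts added in known amounts, under or over 2), the median log2 difference of the 31 genes was 0.65 for the A pair and 0.62 for the B pair. Without the 3 dim arrays, 21 genes were higher and 0 lower. When the treatment text of the B ethanol arrays was followed and they were moved to the untreated groups, 8 members were called. The share of all tested probe sets called after these changes of arrays is not given here, so these counts have no background. On trimmed-mean scaling the median of all tested probe sets moved from -0.047 to 0.065, while that of the 31 genes moved from 0.58 to 0.73.

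The ethanol response itself was the second question. In WT, no member was called higher and 8 of 31 were lower, where 1.67% of all tested probe sets were called higher and 3.91% lower. 5 of the 8 were glycolytic enzymes (Pfkp, Hk1, Pkm, Pgam1 and Hk2) and 3 were HIF targets (Vegfa, Bnip3 and Ndrg1). The median log2 change of the 31 genes was -0.21, against 0.014 over all tested probe sets. At an unadjusted p under 0.05 from limma, 0 were higher and 15 lower, with no share of all tested probe sets at that threshold to set beside them.

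**Figure D4:**
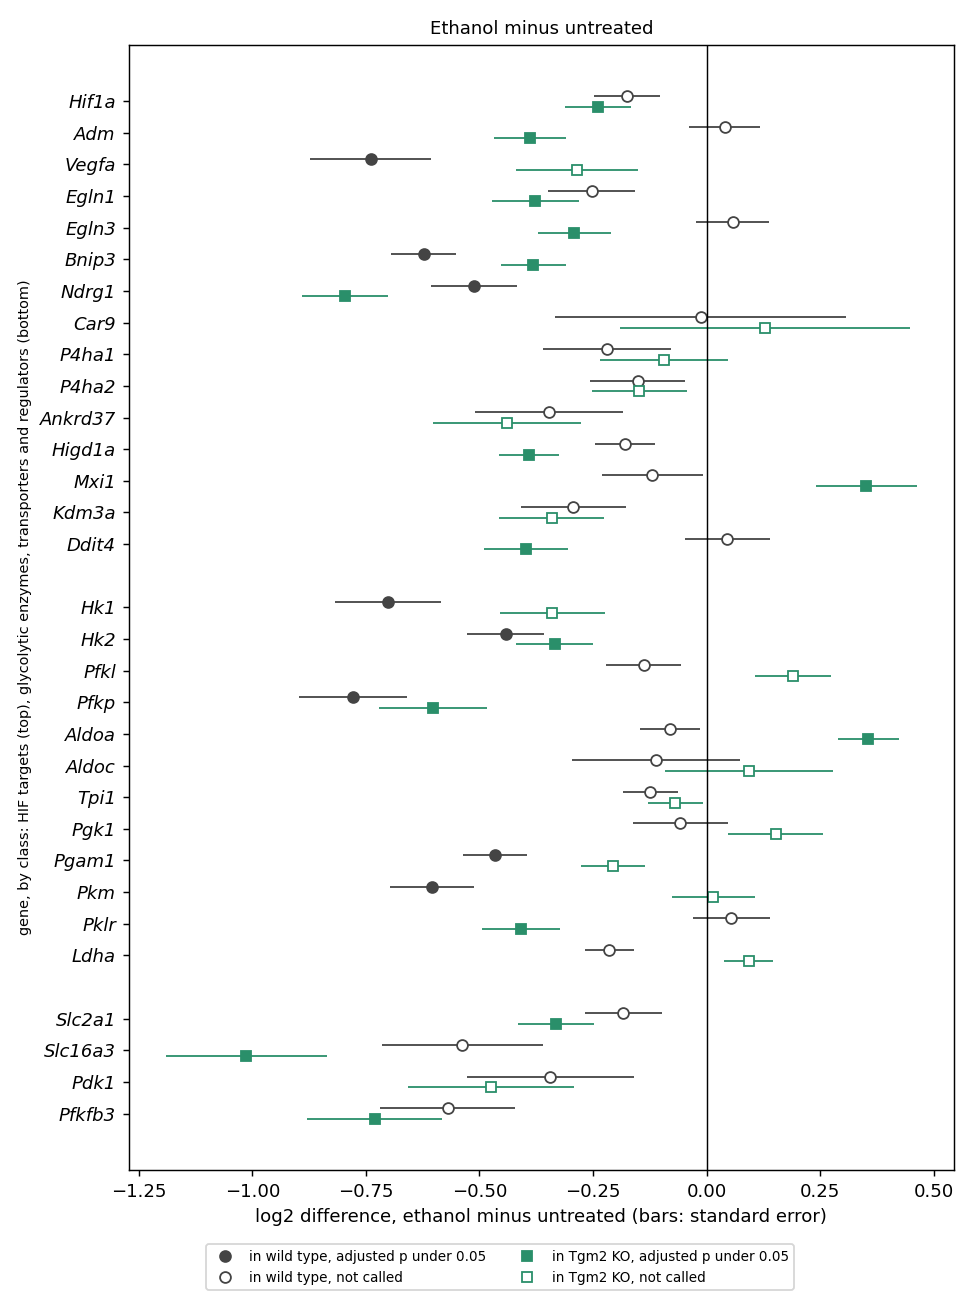
Log2 difference between ethanol and no ethanol (horizontal axis, bars 1 SE) for each of the 31 tested genes, in WT (circles) and in KO (squares), filled where the adjusted p was under 0.05. Filled WT circles all lie left of 0, and Aldoa and Mxi1 are the filled KO squares right of 0.

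Pfkp had the largest fall among the called genes in WT, at a log2 change of -0.78 (SE 0.12, adjusted p = 0.00586), from 359 and 412 to 206 and 230. Vegfa fell by 0.74 on the log2 scale (adjusted p = 0.0136), from 599 and 530 to 359 and 305, and Hk1 fell by 0.70 (adjusted p = 0.00893). Bnip3 fell by 0.62 (adjusted p = 0.00161) and Pkm by 0.61 (adjusted p = 0.0058). The smaller falls were 0.51 for Ndrg1, 0.47 for Pgam1 and 0.44 for Hk2 (adjusted p = 0.0148, 0.00543 and 0.0176). In each of these 8 genes both ethanol WT arrays were below both untreated WT arrays.

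6 genes with genotype gaps are given for comparison. Unlike Vegfa, they were not called with ethanol in WT on their brightest probe sets. Adm, Egln3 and Ddit4 changed by 0.040, 0.058 and 0.046 (adjusted p = 0.873, 0.798 and 0.875). Slc2a1, Slc16a3 and Pfkfb3 changed by -0.18, -0.54 and -0.57 (adjusted p = 0.281, 0.125 and 0.0591). The number of members called in WT was 3 without the untreated array A, 2 without the untreated array B, 4 without the ethanol array A and 3 without the ethanol array B. After moving the B ethanol arrays to the untreated groups, 0 members were called in either genotype. These counts have no background, since the share of all tested probe sets called in the same fits is not given here. Within arrays of like spike-in behaviour the median change of the 31 genes was -0.22 for the A pair and -0.20 for the B pair. The higher 3′ to 5′ ratio in ethanol WT than in untreated WT moves with these falls, and its part in them was not tested. The 2 ethanol comparisons also share their untreated arrays with the untreated genotype comparison.

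In KO, ethanol lowered 14 members and raised 2, where 11.4% of all tested probe sets were called higher and 10.8% lower. By class the counts were 8 lower and 1 higher of 15 HIF genes, 3 lower and 1 higher of 12 enzymes, and 3 lower of 4 transporters and regulators. The median log2 change of the 31 genes was -0.33, against -0.0054 over all tested probe sets. On trimmed-mean scaling the enzyme counts were 5 lower and 0 higher: Aldoa was not called (log2 0.16, adjusted p = 0.274), and Tpi1 and Pgam1 were lower (log2 -0.47 and -0.43, adjusted p = 0.0117 and 0.00568).

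Slc16a3, the lactate exporter, fell by 1.01 on the log2 scale (SE 0.18, adjusted p = 0.00428), from 606 and 679 to 282 and 340, which left it above every WT array. Ndrg1 fell by 0.80 (adjusted p = 0.000851), Pfkfb3 by 0.73 (adjusted p = 0.00839) and Pfkp by 0.60 (adjusted p = 0.00749). Pklr, Ddit4, Adm, Higd1a and Bnip3 fell by 0.41, 0.40, 0.39, 0.39 and 0.38 (adjusted p between 0.00366 and 0.0153). Egln1, Hk2, Slc2a1, Egln3 and Hif1a fell by 0.38, 0.33, 0.33, 0.29 and 0.24 (adjusted p between 0.0213 and 0.0418).

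Aldoa and Mxi1 were the 2 genes that ethanol raised in KO, by 0.36 and 0.35 on the log2 scale (adjusted p = 0.00581 and 0.0488). Aldoa went from 4723 and 4822 to 6435 and 5812, on either side of the WT arrays. These ethanol calls in KO rest on the 2 untreated KO arrays: 3 members were called without array A and 6 without array B. The share of all tested probe sets called without either array is not given here. The untreated KO arrays were both dim and ethanol KO held 1 dim and 1 bright array. The ethanol KO array B set against both untreated KO arrays gave a median change of -0.25.

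Whether ethanol acted differently in the genotypes was tested as the difference of the 2 ethanol changes, KO minus WT. On the brightest probe sets it was called for 2 of 31 genes, both higher, where 3.57% of all tested probe sets were called higher and 1.78% lower. Pkm fell with ethanol in WT and changed by 0.015 in KO (adjusted p = 0.924), a difference of 0.62 (SE 0.13, adjusted p = 0.0279). Aldoa changed by -0.081 in WT (adjusted p = 0.609) and rose in KO, a difference of 0.44 (SE 0.094, adjusted p = 0.0304).

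Both of these calls were lost when any 1 of the 4 WT or 2 untreated KO arrays was left out. On trimmed-mean scaling neither passed (Pkm 0.52, adjusted p = 0.0511; Aldoa 0.20, adjusted p = 0.427), and 5 other genes were called, all lower: Adm, Egln3, Higd1a, Ddit4 and Pklr. Their differences on that scale lay between -0.70 and -0.52, beside -0.43 for Adm, -0.35 for Egln3, -0.21 for Higd1a, -0.44 for Ddit4 and -0.46 for Pklr on the quantile scale. On the quantile scale, limma at an unadjusted p under 0.05 gave 8 members higher and 5 lower. The share of all tested probe sets at that threshold is not given here, so these counts have no background.

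Other probe sets of the same genes were compared with the brightest. The 31 tested genes have 68 usable probe sets outside the controls, of which 63 were tested and 5 were too dim, and 20 genes have more than 1. Of other tested probe sets of genes called in untreated KO, 18 of 23 had the same call, and 18 of 21 did with ethanol. For the ethanol change the counts were 4 of 7 in WT and 11 of 21 in KO. For the difference of ethanol changes the count was 3 of 4, all of them sets of Aldoa. In all 5 comparisons 0 other sets had the opposite call, with limma at an adjusted p under 0.05. Opposite signs without a call did occur for the ethanol change in KO. There, other tested sets of Pklr and Pfkfb3 changed by 0.36 and 0.45 (limma, adjusted p = 0.0681 and 0.231), where the brightest sets fell. Another Slc2a1 set changed by 0.0058 (adjusted p = 0.962).

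**Figure D5:**
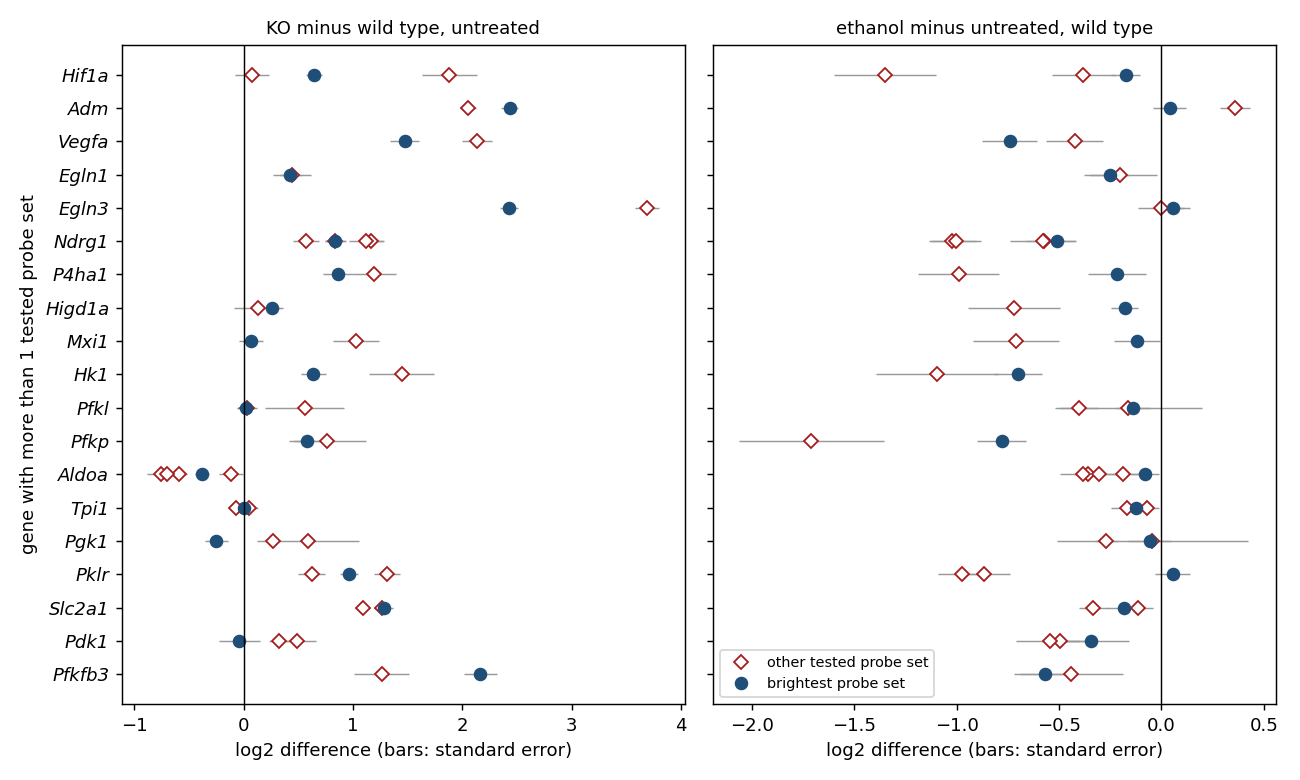
Log2 difference (horizontal axis, bars 1 SE) of every tested probe set of the 19 genes with more than 1, for KO minus WT in untreated cells (left panel) and for ethanol minus no ethanol in WT (right panel), with the brightest set filled. In the right panel the 2 dimmer sets of Pklr lie at -0.86 and -0.97, left of the brightest set at 0.055.

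The size of a difference varied between probe sets of 1 gene. Egln3 differed by 3.69 on its second set and by 2.43 on the brightest in untreated KO. Hif1a differed by 0.076 and 1.88 on its other 2 tested sets, beside 0.65 on the brightest. Mxi1, not called on its brightest set, differed by 1.03 on the other and was called higher. Aldoa was lower in untreated KO on 4 of its 5 sets, from -0.76 to -0.38, and not called on the fifth (-0.12).

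Probe sets of several genes gave different calls in the ethanol comparisons. In WT, ethanol lowered another set of Hif1a (-1.35), P4ha1 (-0.99), Pdk1 (-0.49), Pfkl (-0.40), Aldoa (-0.36) and Slc2a1 (-0.33). Their adjusted p from limma lay between 0.0135 and 0.0357, and the brightest sets of these genes were not called. Other sets of Pdk1 were also lower with ethanol in KO (-0.71 and -0.67), unlike its brightest. With ethanol in WT, Pklr was lower on both dimmer sets (-0.86 and -0.97) and not called on the brightest. Its genotype difference in the ethanol change was 1.23 on 1 dimmer set, called higher, and -0.46 on the brightest (adjusted p = 0.0579). Pgk1 was called on its second set in 4 comparisons, higher in KO by 0.27 and 0.20 and lower with ethanol (log2 -0.27 in WT and -0.34 in KO), and in none on the brightest. On its second set Adm was called higher with ethanol in WT, by 0.36. The difference of ethanol changes, KO minus WT, was called lower on the second sets of Adm (-0.88, adjusted p = 0.00333) and Egln3 (-1.22, adjusted p = 0.00428). It was called higher on other sets of Ndrg1 (0.97, adjusted p = 0.0145) and Pfkl (0.60, adjusted p = 0.0304).

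Other parts of the HIF system were read from a list of 15 regulators and partners, 13 of them tested. In untreated KO 3 were higher and 4 lower, and with ethanol 0 were higher (1 at an unadjusted p under 0.05 from limma) and 4 lower. The ethanol change was called for 1 in WT, lower, and for 6 in KO, 4 higher and 2 lower. Egln2, another prolyl hydroxylase, and Hif1an, which blocks HIF activation, were lower in KO, with log2 differences of -0.94 and -0.77 in untreated cells and -0.63 and -0.56 under ethanol (adjusted p between 0.000552 and 0.0154). Vhl, which marks HIF for degradation, was higher by 1.08 in untreated KO (adjusted p = 0.00222) and differed by -0.0070 with ethanol (adjusted p = 0.983). Ethanol lowered Vhl in KO (log2 -0.78, adjusted p = 0.0183), and its difference of ethanol changes, KO minus WT, was -1.09 (adjusted p = 0.049). Epas1, the second HIF alpha subunit, was lower in untreated KO (log2 -0.50, adjusted p = 0.00444). Epas1, Egln2 and Hif1an rose with ethanol in KO, by 0.57, 0.61 and 0.53 (adjusted p = 0.00425, 0.0101 and 0.0262). Arnt, the HIF partner, was lower in ethanol KO than in ethanol WT (log2 -1.05, adjusted p = 0.0303), and Cited2, which competes with HIF for a coactivator, fell with ethanol in both genotypes (-0.44 in WT and -0.55 in KO, adjusted p = 0.0282 and 0.00386).

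A second list held 21 further HIF targets, 17 of them tested. In untreated KO 8 were higher and 2 lower, with ethanol 7 and 2. With ethanol, 4 fell in WT, and in KO 5 fell and 1 rose. Ero1a, an oxidase of the endoplasmic reticulum, was higher by 1.99 and 1.92 (adjusted p = 8.57e-08 and 1.44e-07). Hmox1, the heme-degrading oxygenase, was higher by 0.90 and 1.37 and Wsb1, a ubiquitin ligase adaptor, by 1.25 and 0.97 (adjusted p between 3.47e-06 and 0.000642). Pdgfb, a growth factor for mesenchymal cells, was lower in untreated KO (log2 -1.10, adjusted p = 0.000162). Plod2, a collagen-modifying enzyme, fell with ethanol by 1.22 in WT and 1.46 in KO (adjusted p = 0.0405 and 0.00751). 

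The last list held 18 liver forms and other isozymes of the same steps, 11 of them tested. In untreated KO 1 was higher and 2 lower, and with ethanol 2 were higher and 1 lower, while ethanol raised 1 in WT and 4 in KO. Pdk4, the fasting-induced pyruvate dehydrogenase kinase, was higher by 1.29 and 0.80 (adjusted p = 9.18e-05 and 0.00155), and Hk3 was lower in untreated KO (log2 -1.27, adjusted p = 0.00832). Slc2a2, the glucose transporter of hepatocytes, rose with ethanol by 0.65 in WT and 0.44 in KO (adjusted p = 0.0129 and 0.0255). Gckr, which holds glucokinase in the nucleus, rose with ethanol in KO by 0.71 (adjusted p = 0.0157).

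Markers of hepatocytes were bright on every array, with a summed intensity of 61490 to 66641 over 8 genes. Of these 8, 3 were higher and 4 lower in untreated KO, and 1 was higher and 3 lower under ethanol. Among all tested probe sets the shares were 15.3% higher and 16.9% lower in untreated KO, and 14.0% and 15.1% under ethanol. Cyp2e1, the ethanol-oxidising cytochrome, was higher by 0.60 in untreated KO and 0.64 under ethanol, and Apob and Ttr were higher in untreated KO by 0.46 and 0.21. Hnf4a, a hepatocyte transcription factor, had the lowest log2 differences of the 8 between KO and WT. They were -1.36 in untreated cells and -1.08 under ethanol (limma, adjusted p = 1.56e-05 and 6.06e-05). The other hepatocyte markers called lower are not named here. Macrophage markers (10 measured, 9 tested) summed to 4988 and 5324 in WT cells (6881 and 7051 under ethanol) and 6000 and 6053 in KO cells (8719 and 8152 under ethanol). Of the 9, Cd68 was 2.83-fold higher in untreated KO and Marco, Csf1r and Lyz2 were lower, with log2 differences of -0.98, -0.65 and -0.55.

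Endothelial markers (10 measured) summed to 578 to 729 over all arrays, lymphocyte and neutrophil markers (6 measured) to 149 to 238, and stellate and fibroblast markers (10 measured) to 267 to 449 in WT and 469 to 788 in KO, where Dcn was higher by 1.53 without ethanol. The other 4 tested stellate and fibroblast markers were not called in untreated KO, with log2 differences of -1.03 for Acta2, -0.45 for Des, -0.37 for Col1a2 and 0.026 for Reln. Cholangiocyte markers (4 measured) summed to 312 to 460 in WT and 768 to 1118 in KO, most of it from Sox9, which was higher by 1.66, while the defining Krt19 and Krt7 were too dim to test and Epcam was not called (log2 -0.87 in untreated KO, 0.89 under ethanol). Erythroid markers (3 measured) summed to 278 to 325 in WT and 472 to 668 in KO. The 1 tested erythroid marker was called higher in KO, by 0.82 in untreated cells and 0.97 under ethanol. With both treatments pooled, the cholangiocyte, erythroid and stellate sums did not overlap between genotypes, whereas the endothelial, lymphocyte and macrophage sums did. Within untreated cells the latter were also higher in KO: endothelial sums were 584 and 578 in WT and 652 and 729 in KO. Untreated lymphocyte and neutrophil sums were 186 and 187 in WT and 238 and 229 in KO. Macrophage sums were higher in KO within each treatment. Under ethanol, endothelial sums were lower in KO (666 and 685) than in WT (726 and 714), and lymphocyte sums overlapped. Of 8 tested endothelial markers, 1 was called higher and 0 lower in KO, both in untreated cells and under ethanol. The share of all tested probe sets called higher was 15.3% in untreated KO and 14.0% under ethanol. The part of these cells in the differences of the HIF targets was not tested. In RNA from whole cultures, fewer cells of a type and less RNA per cell cannot be told apart.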

How the data were processed

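Per the labels' protocols, total RNA from primary hepatocytes was labelled with biotin and hybridised to 1-colour arrays. The authors deposited 1 table of linear intensities for 45101 probe sets, not scaled to a common level; the software that summarised probes is not given in the sources used here. On the ethanol WT array B, 5410 unusable values (5403 of them 0) were treated as missing. Gene symbols came from GEO's platform annotation, in which 34958 probe sets have 1 symbol, 932 several and 9211 none.

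The 39627 non-control probe sets with a value on all 8 arrays were quantile-normalised and turned into log2(intensity + 16), a step applied here to the deposited intensities. The brightest 50% (mean at least 5.40 on the log2 scale, 19814 probe sets) were fitted with limma 3.58.1 in R 4.3.3, on 4 group means with a mean-variance trend and 4 residual degrees of freedom. Contrasts were adjusted over all tested probe sets by Benjamini-Hochberg, and a call is an adjusted p under 0.05. The offset understates changes of dim genes, and the number of arrays limits the precision. The fit was tested on simulated data.

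All 36 genes are named, the 31 tested ones by their brightest probe set, and of each other list up to 4 genes with the smallest adjusted p per comparison. The genes, the lists and the tests were chosen with earlier results of these data known. Alternatives covered scaling, offset, filter, variance trend, letters, spike-in behaviour, the arrays with conflicting text and each array left out. 0 value columns lacked a sample.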

Additional observations from a re-analysis of the deposited data

Results flagged for a closer look

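2 genes had an ethanol change that differed between the genotypes by the test of the difference itself. For Pkm, the difference of the ethanol changes, KO minus WT, was 0.6204 on the log2 scale (limma, adjusted p = 0.0279), with both ethanol WT arrays below both untreated WT arrays and the 2 ethanol KO arrays on either side of the untreated KO arrays. Aldoa has 4 other tested probe sets, of which 3 were called higher too, by 0.81, 0.87 and 0.69 (limma, adjusted p = 0.00348, 0.0207 and 0.0173). The remaining set differed by 0.47 (limma, adjusted p = 0.122). On the brightest set of Aldoa the difference was 0.4374 (limma, adjusted p = 0.0304), with both ethanol KO arrays above both untreated KO arrays. Neither was called when any 1 of the 4 WT or 2 untreated KO arrays was left out, and neither was called with trimmed-mean scaling (0.52 for Pkm and 0.20 for Aldoa). No group of arrays was large enough for a search for single outlying arrays.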

How the results depend on the processing

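Of 71 called results of single genes, 22 alternatives gave 1521 values, of which 1326 kept direction and call, 195 lost the call and 0 reversed. The number of members called in untreated KO against WT stayed between 17 and 24 (21 as reported). For KO against WT with ethanol (24) it was 8 with the B ethanol arrays moved to the untreated groups, as their treatment text reads, and 20 to 25 otherwise. For ethanol in WT (8) it was 2 without a variance trend, 0 after that move, 2 to 11 with 1 array left out at a time and 8 to 11 otherwise. For ethanol in KO (16) it was 4 without a variance trend, 0 after that move, 3 to 18 with 1 array left out and 11 to 19 otherwise. For the difference of ethanol changes (2) it was 5 with trimmed-mean scaling, 1 without the filter on dim probe sets, 5 with the brightest 30%, 0 without a variance trend, 7 without the B ethanol arrays, 0 with them moved to the untreated groups, 4 with the spike-in split as a term and 0 to 10 with 1 array left out. The share of all tested probe sets called under each alternative is not given beside the member counts, here or above. Where an array was left out, the lone array of its group was assumed to vary like the others. Deviations of the lettered arrays correlated by 0.204 to 0.302 between untreated WT, ethanol WT and ethanol KO, where A and B also differ in spike-in behaviour, and by 0.0218 to 0.0308 between untreated KO and each of these, so the letters were not taken to pair all arrays. A replicate block on them gave 21, 24, 8, 16 and 3 members in the 5 comparisons, with Pklr added for the difference of ethanol changes and no call lost. With the spike-in split as a term, the calls of Hif1a and Mxi1 with ethanol in KO were lost and the difference of ethanol changes was called for Ddit4 and Pklr too.

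The calls lost most often were Egln1 between genotypes with ethanol (15 alternatives), Mxi1 (14) and Hif1a (13) with ethanol in KO, the difference of ethanol changes for Aldoa (10) and Pkm (9), Aldoc between genotypes with ethanol (9), Egln3 with ethanol in KO (9) and Hk2 with ethanol in WT (8). The causes were not tested. Without the 3 dim arrays, the untreated genotype comparison, the ethanol change in KO and the difference of ethanol changes had no value. With 2 arrays a group, small differences of dim genes such as Car9 were not measurable.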
